A study of Rattus norvegicus with 458 samples.

Results

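The dorsal root ganglion, which holds the cell bodies of the sensory neurons of the body outside the brain and spinal cord, was compared with 4 regions of the brain by small RNA sequencing in the rat. Its members were all samples with the tissue label DRG. They were 2 pools of RNA, each of 5 rats, 1 pool of females and 1 of males, among 207 samples of 23 tissues (215 when technical libraries are counted singly). Each pool was sequenced as 5 technical libraries, which were summed, so that the ganglion side was 2 samples and not 10. The comparison groups were the Cerebrum, the Cerebellum and the Brainstem, with 10 libraries each, and the Hippocampus with 7, each library from 1 rat, so that 37 brain libraries were used. Hippocampus libraries of rats 2, 6 and 7 were left out, because their profiles lay closer to the uterus, the duodenum and the ovary (r = 0.956, 0.954 and 0.972) than to the other libraries of their own label (r = 0.667, 0.604 and 0.638). All animals were untreated Sprague Dawley rats of 12 to 13 weeks, and the brain libraries came from 5 males and 5 females. The labels give no allele or agent for any group. They give no rat numbers for the pools, so whether these were the same rats is not stated. The methods state that the ganglion RNA came from another laboratory, and no RNA integrity number is listed for it, whereas those of the brain RNAs used lay between 6 and 8.3. The tissue and the source of the RNA therefore cannot be told apart.

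A microRNA (miRNA) is cut from a hairpin precursor, of which one or both arms (5p and 3p) can remain as the mature form, and it represses messenger RNAs that match its seed, the bases 2 to 8 from the 5′ end. Sensory ganglia are known for the miR-183, miR-96 and miR-182 cluster, which is shared by sensory cells of the ear, the eye and the ganglia. They also lie along the trunk, where HOX gene clusters and the miRNAs inside them are expressed, while most of the brain lies in front of the HOX domain. Beside neurons, a ganglion holds satellite glia, Schwann cells, connective tissue and vessels, and in bulk RNA fewer cells of a type cannot be told apart from less RNA per cell.

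The sequences on which the results turn are given here, from RefSeq and its rat build GRCr8, with the seed in capitals. Of the 562 single mature names tested, 454 matched a RefSeq sequence by name. The first set shows the markers by which the ganglion was described, which are the 3p arms of both miR-138 loci, and the 5p arm that both loci share.
miR-138-1-3p: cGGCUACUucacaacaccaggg
miR-138-2-3p: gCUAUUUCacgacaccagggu
miR-138-5p: aGCUGGUGuugugaaucaggccg
The 3p arms lie at chr8:131178494-131178515 on the plus strand and chr19:10680139-10680159 on the minus strand, and only they tell the loci apart. The next set shows the sensory cluster, in which the 3 main arms have similar seeds and lie within 3879 bases, at chr4:59752249-59752273 (miR-182), chr4:59755901-59755923 (miR-96-5p) and chr4:59756106-59756127 (miR-183-5p), all on the minus strand.
miR-182: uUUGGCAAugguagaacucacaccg
miR-96-5p: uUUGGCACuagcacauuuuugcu
miR-183-5p: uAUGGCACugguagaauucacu
The miRNAs of the HOX clusters are shown because they were the highest of all in the ganglion or stood farthest from the brain.
miR-10a-5p: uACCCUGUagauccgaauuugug
miR-10b-5p: cCCUGUAGaaccgaauuugugu
miR-196a-5p: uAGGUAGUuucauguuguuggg
miR-196b-5p: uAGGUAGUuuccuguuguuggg
They lie at chr10:81779730-81779752 on the plus strand, chr3:80035886-80035907 on the plus strand, chr7:135988900-135988921 on the plus strand and chr4:82661149-82661170 on the minus strand. The first base of RefSeq's miR-10b-5p was not that of the reads, as shown with the ends of the reads. Last come 2 miRNAs that were low in the ganglion and high in every region of the brain.
miR-128-3p: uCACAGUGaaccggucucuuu
miR-9a-5p: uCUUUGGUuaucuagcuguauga

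The table of counts held 7534 names, of which 984 passed the filter on low counts and were tested. These were 562 single mature names, 53 composite names for reads that fit more than 1 precursor, 341 predicted miRNAs and 28 precursor entries. A name could pass the filter through the 2 pools alone. Tested names that were nearly absent from the brain were therefore high in the ganglion by selection. The female pool held 10394719 counts and the male pool 9019247, and the brain libraries between 2207930 and 7506562. Levels are given as scaled CPM, which is the usual CPM after each library total is multiplied by its upper quartile factor. The factors of the pools were 0.611 and 0.774, so that their scaled CPM exceed their plain CPM, and those of the Cerebellum libraries were between 0.649 and 0.813. A miRNA was called when its adjusted p was below 0.05 in edgeR's quasi-likelihood test. The spread in that test came almost wholly from the brain libraries, since the ganglion gave 2 pools, and a pool of 5 rats evens out the differences between rats.

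The pools were close to each other. Over the 262 names with a mean of at least 50 scaled CPM in the pools, the median difference between the female and the male pool was 0.20 on the log2 scale without sign, and 11 names differed by more than 1. The largest differences were in names that share reads. A composite of let-7 members had 0.315 scaled CPM in the female pool and 278 in the male pool, and the composite of let-7a and let-7c had 215 and 881. miR-486-5p, which is abundant in red blood cells, had 46.7 and 216. Over technical libraries it ranged from 35.9 to 1037 plain CPM in the male pool and from 19.9 to 45.1 in the female pool. miR-451-5p, also of red cells, had 483 and 380, and the composite of miR-3107-5p and miR-486-5p had 4908 and 6113. miR-486-5p also had 742 scaled CPM in Cerebrum rat 9 and 794 in Brainstem rat 6. Those libraries and the male pool had runs on a lane with an added first base, described below. In the Cerebellum, which had no run on that lane, all 10 libraries had 220 to 325 scaled CPM of miR-486-5p. The part of that lane in these levels was not tested. With 1 pool per sex, sex and pool cannot be told apart, and no difference between the pools was tested.

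Against the mean of the 4 regions, 249 names were higher in the ganglion (25.3% of those tested) and 250 were lower (25.4%). Fold changes are log2 values of the ganglion over the brain, with their standard error (SE). Single regions gave similar shares. The ganglion was higher than the Cerebrum for 250 names (25.4%) and lower for 247 (25.1%), and higher than the Cerebellum for 226 (23.0%) and lower for 243 (24.7%). It was higher than the Brainstem for 226 (23.0%) and lower for 246 (25.0%), and higher than the Hippocampus for 259 (26.3%) and lower for 245 (24.9%). These 4 comparisons share the pools. In all 4 regions at once, 141 names were higher (14.3%) and 162 lower (16.5%). Without any model, both pools lay above all 37 brain libraries for 148 names (15%) and below all of them for 129 (13.1%). The plot of all tested names shows the names called against all 4 regions on either side of the line of equal level.

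The scaling decided how the calls split. With upper quartile factors 49.9% of the called names were higher in the ganglion, and with library totals alone 34.2%, with 170 names higher and 327 lower. The median over all names moved by -0.58 on the log2 scale, so that small rises under the first scaling are not rises under the second. Most of the changes described next were far larger than this shift.

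**Figure D1:**
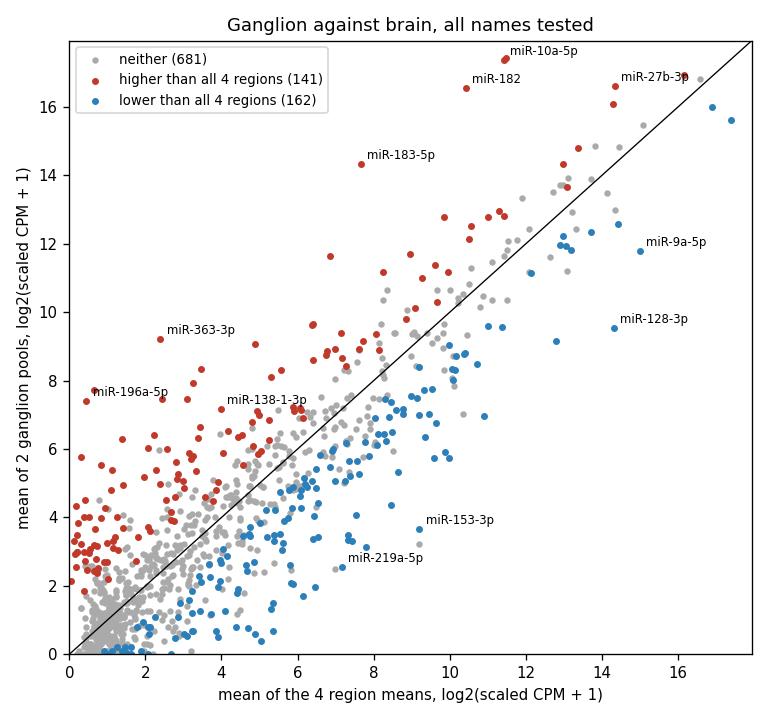
Each point is 1 of 984 names, with the mean of the 4 region means on the x axis and the mean of the 2 ganglion pools on the y axis, both as log2(scaled CPM + 1). Names higher in the ganglion than in all 4 regions (141) are red, names lower than all 4 (162) are blue, the rest grey, and the line marks equal levels; miR-182, miR-183-5p and miR-10a-5p lie far above it, miR-128-3p and miR-153-3p below it.

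The 3p arms of miR-138, a miRNA abundant in neurons throughout the nervous system, were higher in the ganglion than in the brain, whereas the 5p arm was little different. miR-138-1-3p had 150 scaled CPM in the female pool and 136 in the male pool. In the brain it had a lowest, median and highest level of 13.1, 17.3 and 21.3 in the Cerebrum, 2.18, 5.93 and 7.41 in the Cerebellum, 8.22, 12.1 and 18.1 in the Brainstem, and 18.6, 21.0 and 28.7 in the Hippocampus. Both pools lay above every brain library. Its log2 fold change over the mean of the regions was 3.44 ± 0.17 (SE; edgeR adjusted p = 2.9e-19), and between 2.66 over the Hippocampus and 4.64 over the Cerebellum.

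miR-138-2-3p had 44.3 scaled CPM in the female pool and 31.4 in the male pool, while the 37 brain libraries lay between 2.23 and 10.4. The groups did not overlap, and the log2 fold change was 2.62 ± 0.22 (SE; edgeR adjusted p = 4.2e-13). For the shared 5p arm the picture was another. miR-138-5p had 11588 and 12060 scaled CPM in the pools, and its highest brain library, from the Hippocampus, had 12380. The log2 fold change of 0.94 ± 0.22 (SE) was past the threshold against the mean (edgeR adjusted p = 0.00034), but against single regions it was past it only for the Cerebellum and the Brainstem. With library totals alone it was 0.37 (adjusted p = 0.182), and without predicted and precursor names all 3 tested names of the miR-138 loci were higher than all 4 regions.

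Per 100 counts of miR-138-5p, the pools thus held 1.30 and 1.13 counts of miR-138-1-3p, against 0.0745 to 0.444 in the brain libraries. For miR-138-2-3p the ratios were 0.382 and 0.260, against 0.0443 to 0.223. These ratios within a library do not depend on the scaling, and neither overlapped with the brain. Among the medians of all 23 tissues, as plain CPM, the ganglion was the highest for miR-138-1-3p, with 98.3 against 24.7 in the Hippocampus, and for miR-138-2-3p, with 25.7 against 8.05 in the Cerebrum. Its rank was 3 for miR-138-5p. These medians, and those of the 23 tissues given below, include the 3 hippocampus libraries left out of the comparison. The order of the Hippocampus and the other regions behind the ganglion is therefore not settled by them.

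Among the 21 lists of miRNAs examined, the sensory cluster had the second highest summed level in the ganglion, after the HOX clusters. All 6 of its tested names (of 7 in the table) were higher than all 4 regions, in both pools above every brain library, and their median log2 fold change was 7.38 against -0.06 over all names. With names absent from a whole region set to the floor of 3 counts over the group, the median was 7.40. The count of names higher is partly set by the filter, which a name could pass through the pools alone. Without the filter all 7 names were tested, and 7 were higher than all 4 regions. miR-182, the most abundant member, had 109320 scaled CPM in the female pool and 81772 in the male pool, which were 6.67% and 6.33% of their counts. In the Cerebrum it had 34.0, 53.1 and 187 (lowest, median and highest), in the Hippocampus 29.9, 70.7 and 92.8, in the Cerebellum 169, 248 and 9726, and in the Brainstem 77.1, 4527 and 5203. No brain library reached the pools, but the Brainstem stood far above the other regions. The log2 fold change was 7.96 ± 0.59 (SE; edgeR adjusted p = 1.6e-14), from 4.54 over the Brainstem to 10.52 over the Hippocampus.

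The 5p arm of miR-183 followed the same order of tissues. miR-183-5p had 23163 and 18090 scaled CPM in the pools, and its brain medians were 5.34 in the Cerebrum, 7.15 in the Hippocampus, 29.1 in the Cerebellum and 653 in the Brainstem. Its log2 fold change was 8.58 ± 0.65 (SE; edgeR adjusted p = 3.5e-14). miR-96-5p, the least abundant main arm, had 268 and 218 scaled CPM, and the highest brain library, from the Cerebellum, had 91.2. A log2 fold change of 6.25 ± 0.66 (SE) was also called (edgeR adjusted p = 1.6e-10). The passenger arm miR-183-3p had 46.3 and 44.8 scaled CPM, and it was at 0 in every library of the Hippocampus and at most 5.57 in the brain.

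The proportions within the cluster were alike in the pools. Per 100 counts of miR-182 they held 21.2 and 22.1 counts of miR-183-5p, above the 5.81 to 18.5 of the brain libraries, and 0.245 and 0.266 counts of miR-96-5p, within the range of 0 to 3.67 in the brain. Of all 23 tissues the ganglion had the highest median of miR-182, with 65015 plain CPM against 7184 in the pancreas, and of miR-183-5p, with 14071 against 749 in the Brainstem. It was also the highest for miR-96-5p, with 166 against 79.0 in the pancreas.

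Both wide ranges of the cluster in the brain rest on single libraries. The Brainstem library of rat 9 had 77.1 scaled CPM of miR-182 where the next lowest had 3636, and its profile was nearly as close to the Cerebrum as to its own label. The Cerebellum library of rat 10 had 9726 where the next highest had 593. Cerebrum rat 9 stood apart for 9 of the named miRNAs and lay slightly closer to the Hippocampus than to its label (r = 0.939 and 0.931). The same held for other libraries of these regions that were not left out in turn, most for Hippocampus rat 10 (0.979 to the Cerebrum and 0.959 to its label). Without Brainstem rat 9, Cerebellum rat 10 and Cerebrum rat 9, 254 names were higher than the mean of the regions and 255 lower, and the pools lay above the 34 libraries left for 151 names and below them for 137. All 6 names of the cluster stayed higher than all 4 regions.

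**Figure D2:**
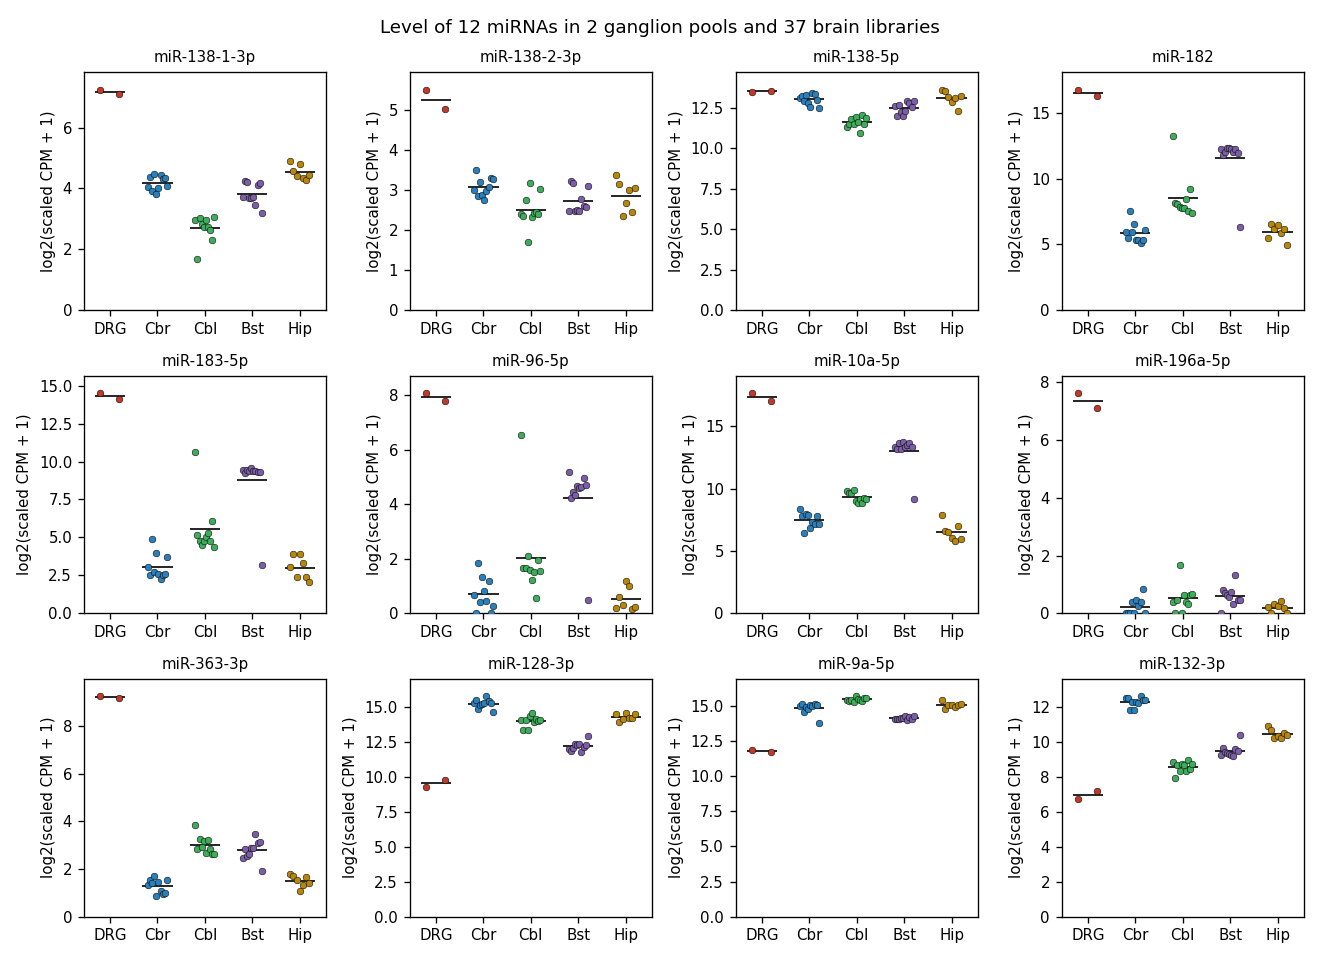
Each point is 1 sample, with the level as log2(scaled CPM + 1) on the y axis, in panels for 12 miRNAs. DRG stands for the 2 ganglion pools, Cbr for the Cerebrum, Cbl for the Cerebellum, Bst for the Brainstem, Hip for the Hippocampus, and lines are group means on the log2 scale; the pools lie above all 37 brain libraries in 8 panels, below all of them for miR-128-3p, miR-9a-5p and miR-132-3p, and among the highest for miR-138-5p.

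The miRNAs of the HOX clusters summed to 422220 and 274910 scaled CPM in the pools, against 100.2 to 27275 in the brain. All 8 tested names (of 16 in the table) were higher than all 4 regions and lay in both pools above every brain library, with a median log2 fold change of 8.03, or 7.91 with names absent from a region at the floor. This is partly set by the filter, which a name could pass through the pools alone. miR-615, for instance, had 45 counts in the pools and 5 in the brain libraries. Without the filter 16 names were tested, and 15 were higher than all 4 regions. With all 10 hippocampus libraries 9 names were tested, and all 9 were higher than the mean but none than all 4 regions. miR-10b-5p, from the Hoxd cluster, had 216230 and 139870 scaled CPM in the pools, 13.2% and 10.8% of their counts. miR-10a-5p, from the Hoxb cluster, had 205370 and 134590, or 12.5% and 10.4%. Together they made up more of each pool than any other pair of names.

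In the brain both were highest in the Brainstem. The medians of miR-10b-5p were 69.4 in the Hippocampus, 171 in the Cerebrum, 1148 in the Cerebellum and 10400 in the Brainstem, and those of miR-10a-5p were 93.4, 190, 602 and 10196. The highest brain library of each, with 14497 and 14019, was from the Brainstem. miR-10b-5p differed from the mean of the regions by a log2 fold change of 8.12 ± 0.28 (SE; edgeR adjusted p = 1.4e-24), and miR-10a-5p by 8.14 ± 0.29 (SE; edgeR adjusted p = 3.6e-24). Over the Brainstem alone the log2 fold change of miR-10b-5p was 4.17, and over the Hippocampus 11.11.

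Neither was at its highest in the ganglion among the 23 tissues. By plain CPM the ganglion had rank 5 for miR-10a-5p, behind the kidney medulla with 324860, and rank 7 for miR-10b-5p. miR-196a-5p and miR-196b-5p, which lie at more posterior positions within HOX clusters, were nearly absent from the brain. miR-196a-5p had 197 and 138 scaled CPM in the pools and at most 2.23 in any brain library, and miR-196b-5p had 249 and 176, with at most 2.79. As several brain libraries had no count of them, their fitted log2 fold changes of 9.04 and 8.74 are no measure of size beyond that.

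Also far above the brain was a cluster on the X chromosome that resembles the miR-17-92 cluster known from dividing cells. In RefSeq it spans X:137342788-137343637, and 6 of its 7 tested names were higher than all 4 regions, with a median log2 fold change of 6.14. Of these 7, miR-92a-3p, miR-19b-3p and miR-17-5p also lie in the miR-17-92 cluster on chr15, so their counts cannot be assigned to 1 cluster. In the chr15 cluster 2 of 9 tested names were higher than all 4 regions, near the 14.3% over all names, with a median of 0.51. miR-363-3p had 611 and 581 scaled CPM in the pools, and the 37 brain libraries lay between 0.828 and 13.6. This gave a log2 fold change of 7.47 ± 0.17 (SE; edgeR adjusted p = 5.3e-30). miR-20b-5p had 57.5 and 48.8, and 0.908 was its highest brain library. For both, the ganglion was the highest of the 23 tissues, followed by the testis, with 411 against 146 plain CPM for miR-363-3p and 36.5 against 7.97 for miR-20b-5p. These 2 sequences, at X:137342788-137342808 and X:137343239-137343261 on the minus strand, carry different seeds.
miR-363-3p: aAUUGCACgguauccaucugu
miR-20b-5p: cAAAGUGCucauagugcagguag

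The second X-linked cluster, X:137720985-137726219, holds the miR-450a, miR-542, miR-351, miR-503 and miR-322 genes, and miR-322 and miR-503 are known to slow the cell cycle. All 8 of its tested names were higher against the mean and 7 were higher than all 4 regions, with a median log2 fold change of 2.27. Both clusters of miR-23, miR-27 and miR-24 were higher too, and miR-24-3p, which both hold, is counted in each. At chr19:40859481-40859798 all 5 tested names were higher than all 4 regions (median 2.76), and at chr17:1818672-1819425 all 5 were higher than the mean and 4 than all 4 regions (median 2.08).

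miR-27b-3p, of the latter cluster, was among the 10 most abundant miRNAs of the pools.
miR-27b-3p: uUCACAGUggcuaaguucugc
It lies at chr17:1819163-1819183 on the minus strand. It had 113520 and 86906 scaled CPM in the pools against 12886 to 31820 in the brain libraries, with no overlap. The log2 fold change was 2.30 ± 0.13 (SE; edgeR adjusted p = 1.1e-17), and the ganglion had the highest median of the 23 tissues, 68286 plain CPM against 50600 in the pancreas.

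The other names among the 10 most abundant of the pools changed less. miR-22-3p, with 135180 and 117420 scaled CPM, had a log2 fold change of 0.86 ± 0.12 (SE). miR-143-3p, a miRNA of smooth muscle and fibroblasts, had 81597 and 57944 against 10005 to 40647 in the brain, a log2 fold change of 1.87 ± 0.21 (SE). miR-26a-5p had 128810 and 101580 and was lower than in the Cerebellum by a log2 fold change of -1.02, though higher than the mean by 0.58 ± 0.14 (SE). Without the female pool the call was lost (0.38, edgeR adjusted p = 0.191), and with library totals the value was -0.0073. miR-30a-5p, with 51255 and 38914, had 0.53 ± 0.14 (SE) and was lower than in the Cerebellum (-0.54). Its call against the mean was also lost without the female pool (0.30, edgeR adjusted p = 0.289) and with all 10 hippocampus libraries, and with library totals it was -0.0663.

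Lower than the mean of the regions were miR-181a-5p and miR-127-3p, which are both abundant in the brain. miR-181a-5p had 54062 and 47288 scaled CPM in the pools and at least 74964 in every brain library, and its log2 fold change was -1.61 ± 0.17 (SE). The 4 tested names with its seed, ACAUUCA, were all lower than the mean. miR-127-3p, from the imprinted Dlk1-Dio3 region, had 69361 and 61419 and a log2 fold change of -0.88 ± 0.15 (SE).

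**Figure D3:**
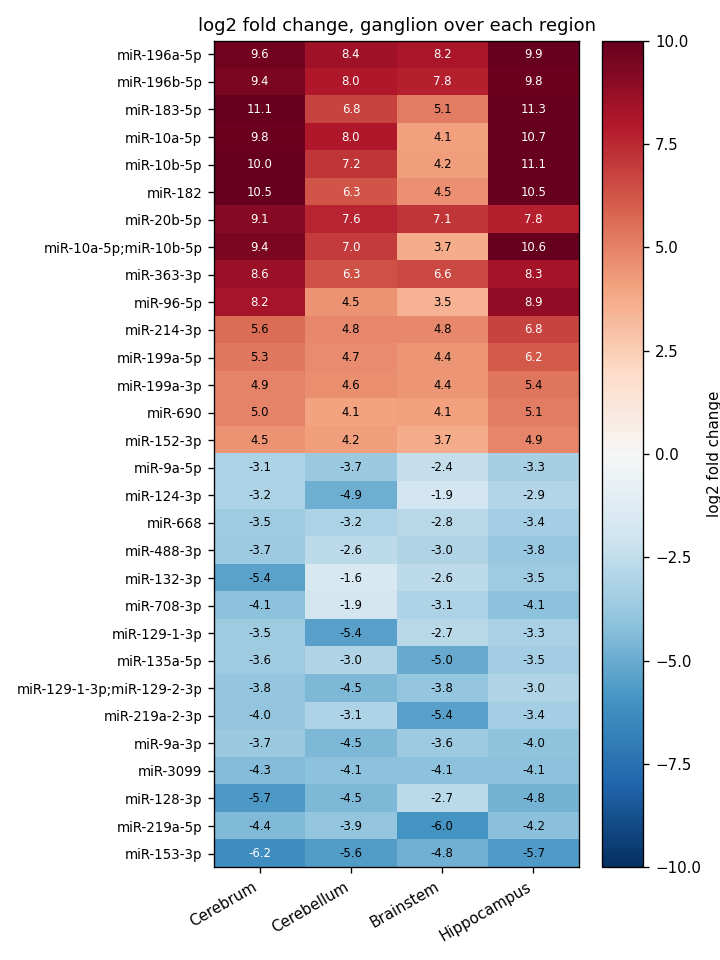
Rows are the 15 miRNAs with the largest and the 15 with the most negative log2 fold change, and columns are the 4 regions. They were drawn from single and composite names called against all 4 regions, outside every brain library and with at least 50 scaled CPM. Colour and number give the log2 fold change of the ganglion over each region; miR-10a-5p and miR-182 were nearest to the ganglion in the Brainstem, and miR-132-3p in the Cerebellum.

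On the low side stood the miRNAs of central neurons (miR-124, miR-128, miR-129, miR-137, miR-153 and miR-218). Of 16 tested names, 13 were lower than the mean and 11 lower than all 4 regions, none was higher, and the median log2 fold change was -3.07. Their summed level was 2261 and 2374 scaled CPM in the pools, against 7601 to 64219 in the brain. With all 10 hippocampus libraries 6 names were lower than all 4 regions. miR-128-3p, which is known to restrain the excitability of neurons, had 612 and 885 scaled CPM. In the brain its lowest, median and highest levels were 26182, 40313 and 55513 in the Cerebrum, 10233, 17205 and 24561 in the Cerebellum, 3458, 4742 and 7708 in the Brainstem and 15516, 19422 and 24779 in the Hippocampus. No library came near the pools, and the log2 fold change was -4.41 ± 0.34 (SE; edgeR adjusted p = 5.1e-14), from -2.68 against the Brainstem to -5.73 against the Cerebrum.

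Among the miRNAs with at least 50 scaled CPM in each region, miR-153-3p, which targets genes of synaptic vesicles, had the most negative fold change. It had 9.14 and 14.2 scaled CPM in the pools and between 176 and 1167 in the brain, with a log2 fold change of -5.56 ± 0.55 (SE; edgeR adjusted p = 4.0e-11). Its other arm, miR-153-5p, had 0.630 and 0 scaled CPM in the pools against 11.3 to 82.1. miR-124-3p, the best known neuronal miRNA, was low but present, with 613 and 530 scaled CPM against 1561 to 18907, a log2 fold change of -3.21 ± 0.21 (SE). miR-129-5p had 116 and 101 against at least 406 in every brain library, a log2 fold change of -2.72 ± 0.19 (SE). Both tested arms of miR-137 were near the brain level, with log2 fold changes of -0.40 and -0.29 that were not called.

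The miR-9 family, which acts in neural progenitors and their neurons in the brain, was lower in all 3 tested names, of which miR-9b-5p lost its call without the male pool (edgeR adjusted p = 0.0538). miR-9a-5p had 3748 and 3353 scaled CPM in the pools and between 14280 and 53597 in the brain, a log2 fold change of -3.13 ± 0.22 (SE). miR-9a-3p had 57.5 and 59.9 against 458 to 1434, a log2 fold change of -3.96 ± 0.24 (SE). Per 100 counts of miR-9a-5p the pools held 1.54 and 1.79 counts of miR-9a-3p, below the range of 2.14 to 4.63 in the brain.

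The miRNAs whose transcription follows neuronal activity, miR-132 and miR-212, were lower in all 4 tested names against each of the 4 regions, with a median log2 fold change of -3.48. Without the female pool 3 of them, and with all 10 hippocampus libraries 1, were lower than all 4 regions. miR-132-3p had 104 and 143 scaled CPM in the pools. Its brain medians were 5162 in the Cerebrum, 1361 in the Hippocampus, 670 in the Brainstem and 408 in the Cerebellum, where the lowest library had 240. Its log2 fold change was -3.27 ± 0.29 (SE) against the mean, between -5.35 against the Cerebrum and -1.63 against the Cerebellum. Both arms of both hairpins lie within chr10:60521771-60522112.

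The rodent miR-344 family was low in all 5 tested names. miR-344b-1-3p, its main form, had 1.89 and 2.58 scaled CPM in the pools against 14.2 to 165 in the brain, a log2 fold change of -4.69 ± 0.39 (SE). Without the female pool 3 of the 5 were called. The cluster hosted by Htr2c, a serotonin receptor gene that is strongly expressed in the choroid plexus, was lower than the mean in 7 of 7 tested names, but 2 were lower than all 4 regions, or 5 in DESeq2. miR-1298 ranged from 16.5 to 3404 in the brain libraries and had 8.67 and 7.88 in the pools. For this cluster the call depended on each pool, as 1 name was called without the female pool and 4 without the male pool.

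Of the 5 tested oligodendrocyte names, 2 arms of miR-219a were lower than the mean and both arms of miR-338 higher. Over all names, 25.4% were lower and 25.3% higher. miR-219a-1-3p, with 4.26 and 5.59 scaled CPM against 2.05 to 10.2 in the brain, had a log2 fold change of 0.21 that was not called. miR-219a-5p, which drives the maturation of these myelin-forming cells of the brain, had 3.47 and 6.16 scaled CPM in the pools against 22.0 to 414, a log2 fold change of -4.62 ± 0.44 (SE; edgeR adjusted p = 1.8e-11). miR-219a-2-3p had 29.0 and 76.6 against 333 to 2876, a log2 fold change of -3.95 ± 0.31 (SE). The arms of miR-338, hosted by the neuronal kinase gene Aatk, were higher than in 3 of the 4 regions. miR-338-3p had 11565 and 9326 scaled CPM, and its highest brain library, from the Brainstem, had 9193. Its log2 fold change was 1.63 ± 0.20 (SE) against the mean, and 0.48 against the Brainstem, which was not called. Without predicted and precursor names both arms were higher than all 4 regions.

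Several smaller groups were lower or mixed, where 25.4% of all names were lower and 25.3% higher than the mean. Of 6 tested names of miR-7 and miR-375, which mark neuroendocrine cells, 5 were lower than the mean (2 with all 10 hippocampus libraries), and miR-7a-5p had 34.8 and 27.1 scaled CPM against 39.6 to 382 in the brain. The miR-34 and miR-449 names were 4 lower and 2 higher of 9, but without the female pool none was called, without the male pool 1 was higher and 0 lower, and with library totals 0 were higher. miR-221 and miR-222 depended on the region. miR-221-3p, with 275 and 258 scaled CPM, was higher than in the Cerebellum (log2 fold change 2.79) and lower than in the Hippocampus (-3.23). miR-204-5p, abundant in the choroid plexus, had 12991 and 13771 and was higher than in the Cerebrum (2.99) and the Hippocampus (2.25) but not called against the Cerebellum or the Brainstem. Its call against the mean was lost without either pool and with library totals (log2 fold change 0.80, adjusted p = 0.119).

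The imprinted Dlk1-Dio3 region, whose miRNAs are expressed in brain and in the embryo, gave 78 tested names. Of these 49 were lower than the mean of the regions and 7 higher, and 31 were lower than all 4 regions, with a median log2 fold change of -0.90. Its summed level was 90635 and 81127 scaled CPM in the pools and between 122040 and 258210 in the brain, without overlap. miR-434-3p had 6234 and 6119 against 7964 to 34661, a log2 fold change of -1.78 ± 0.23 (SE). Its other 22 tested names were not called. The higher names were 3 without either pool and with library totals, and 17 without predicted and precursor names. Those lower than all 4 regions were 21 without the female pool and 20 without the male pool. With all 10 hippocampus libraries 7 names were lower than the mean and 2 lower than all 4 regions.

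**Figure D4:**
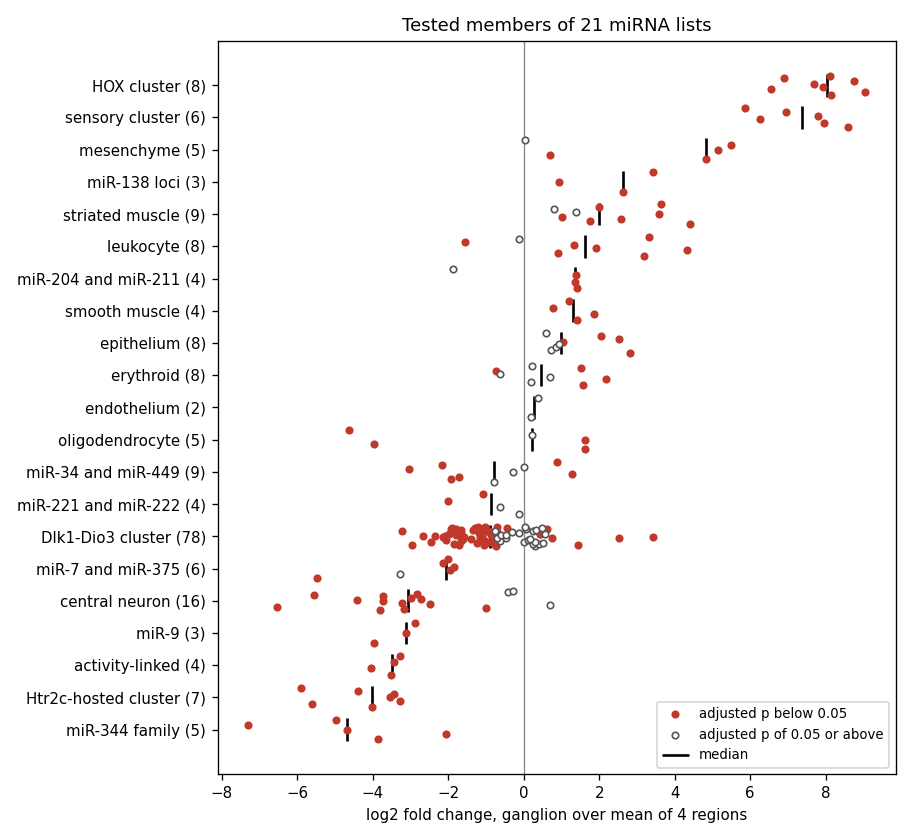
Each point is 1 tested name of a list, with its number of tested names in brackets, and the x axis gives the log2 fold change of the ganglion over the mean of the 4 regions. Filled points had an adjusted p below 0.05 in edgeR, open points had not, and vertical lines are medians; the HOX (8.03) and sensory (7.38) lists lie farthest to the right, the lists of central miRNAs to the left.

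Markers of several other cell types also differed, and their part in the results was not tested. Over all names, 25.3% were higher and 25.4% lower than the mean, and 14.3% were higher than all 4 regions. Of 5 tested names of connective tissue cells (miR-199a, miR-214 and miR-140), 4 were higher than the mean and 3 higher than all 4 regions, and their summed level was 5415 and 5233 scaled CPM in the pools against 651 to 1903 in the brain. miR-199a-3p had 3127 and 3250 against 60.2 to 189, a log2 fold change of 4.84 ± 0.15 (SE), and miR-214-3p had 183 and 167 against 0.766 to 8.76, a log2 fold change of 5.49 ± 0.22 (SE). miR-140-5p had a log2 fold change of 0.04 that was not called, and of -0.55 with library totals that was. All 4 smooth muscle names (miR-143 and miR-145) were higher than the mean and 2 higher than all 4 regions, with a summed level of 82339 and 58465 against 10145 to 41074. Of the 4, miR-143-5p lost its call against the mean without the female pool (edgeR adjusted p = 0.152), without the male pool (0.205) and with library totals (0.521). The names higher than all 4 regions were 1 without either pool, 0 with library totals and 4 without predicted and precursor names.

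Neither arm of miR-126a, the marker of vessel walls, was called, although without predicted and precursor names both were higher than all 4 regions and with library totals 1 was lower than the mean, with 7115 and 6974 scaled CPM in sum against 2428 to 8985 in the brain. Of 8 tested red cell names, 3 were higher and 1 lower, near the 25.3% and 25.4% over all names. Their sum of 5506 and 6850 lay within the brain range of 1747 to 43171. Both sums were above every library of the Cerebrum (at most 3040) and the Hippocampus (at most 2340). They lay within the Brainstem range of 2302 to 9882 and below the Cerebellum range of 27113 to 43171. miR-451-5p, which is made in red cell precursors, had 483 and 380 against 37.01 to 267, a log2 fold change of 2.17 ± 0.24 (SE). Of 8 leukocyte names, 6 were higher and 1 lower, with a sum of 1787 and 1928 that lay within the brain range of 813 to 2754. That sum was above every library of the Hippocampus (at most 1360) and within the ranges of the other regions. miR-146a-5p had 745 and 852 against 25.8 to 203, and miR-223-3p, of the myeloid line, had 82.9 and 75.9 against 3.08 to 25.1. In contrast, the lymphocyte miRNA miR-150-5p was lower, with 445 and 439 against 551 to 2349.

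Striated muscle names (miR-1, miR-133, miR-206, miR-208 and miR-499) were higher in 7 of 9, against 25.3% of all names. They summed to 1334 and 1574 scaled CPM against 81.6 to 1007 in the brain. miR-133a-3p had 1205 and 1437 against 63.0 to 934, a log2 fold change of 2.58 ± 0.37 (SE). Epithelial names were higher in 4 of 8, with a sum of 137 and 140 against 19.0 to 101. miR-205, of squamous epithelium, had 31.8 and 24.6 against 0.544 to 16.7. With all 10 hippocampus libraries the names higher than the mean were 0 for smooth muscle, 2 for leukocytes, 4 for striated muscle and, of 12 then tested, 1 for epithelium, and no connective tissue name was higher than all 4 regions. No tested name of these lists was at 0 in the pools. Since the RNA was bulk, RNA of neighbouring tissues cannot be told apart from that of the cells of the ganglion itself.

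Among the remaining names that stood far above the brain were miR-152-3p, with 571 and 508 scaled CPM against 13.5 to 60.3 (log2 fold change 4.31 ± 0.16, SE), and miR-690, with 47.8 and 119 against 0.724 to 7.85 (4.56 ± 0.25, SE). The pools differed by more than 1 on the log2 scale for miR-690. On the low side, miR-135a-5p had 8.83 and 11.5 scaled CPM (log2 fold change -3.75), miR-3099 had 2.52 and 3.87 (-4.16), and miR-488-3p had 40.2 and 38.7 (-3.27). All 3 lay below every brain library in both pools.

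Families with a shared seed moved together in part, where 25.3% of all names were higher and 25.4% lower than the mean. Of 9 tested let-7 and miR-98 names with the seed GAGGUAG, 7 were higher than the mean and 3 higher than all 4 regions, with a median log2 fold change of 0.71, which is close to the shift between scalings. The 3 tested miR-29 names (seed AGCACCA), which target collagens, were lower than all 4 regions, with a median of -1.45. Of 4 miR-30 and miR-384 names (seed GUAAACA), 3 were lower and 1 higher. Of 5 names with the seed AUUGCAC, which miR-363-3p carries, 4 were higher and 1 lower.

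The table of isomiRs, which lists each sequence with its counts, showed that the reads of several miRNAs began at another base in the ganglion than in the brain. Runs on 1 lane that added a base at the start of reads were left out here, only samples with at least 50 counts were used, and no test was made. Of the reads of miR-138-1-3p, 15.86% and 14.98% in the pools began at the first base of the RefSeq form, against 35.3% to 62.8% in 24 brain libraries. Those that began 2 bases later made up 82.3% and 82.4%, against 33.3% to 62.3%. The pools lay outside the brain range at both starts, and the later start moves the seed by the same number of bases.

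The commonest form of miR-138-1-3p in the pools is shown beside that of miR-138-2-3p, with the seed of that form in capitals.
miR-138-1-3p in the pools: gCUACUUCacaacaccagggu
miR-138-2-3p in the pools: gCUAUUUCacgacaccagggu
Counted from 1 at the 5′ end, with the base of miR-138-1-3p first, these forms differ by C5U and A11G. The former made up 72.6% and 73.7% of its counts in the pools and 21.8% to 50% in the brain. miR-138-5p showed no such shift, with 99.7% at the RefSeq start in both pools and 99.5% to 99.9% in the brain.

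A shift was also seen in the sensory cluster, for 1 of its members. For miR-183-5p, 50.8% and 49.9% of the counts in the pools had the RefSeq start, against 57.9% to 82.8% in 24 brain libraries, and 49.0% and 49.8% began 1 base later, against 16.8% to 42.1%. The later form with the most counts is the commonest in the pools (26.0% and 27.0%, against 5.17% to 16.5% in the brain).
miR-183-5p in the pools: aUGGCACUgguagaauucacug
For miR-182, 99.9% of counts had the RefSeq start in both pools.

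miR-9a-3p, which was low in the ganglion, had the RefSeq start in 33.7% and 44.0% of counts in the pools and in 68.0% to 80.3% in all 37 brain libraries. A start 1 base later made up 66.0% and 56.0%, against 18.8% to 31.8%. These shares rest on 365 and 375 counts in the pools. For its 5p arm, which had 23780 and 21051 counts, the RefSeq start was slightly more frequent than in the brain, with 99.4% and 99.1% against 92.0% to 96.8%. Smaller differences were seen for other miRNAs. miR-27b-3p had the RefSeq start in 99.55% and 99.54% of counts, just above the 99.22% to 99.48% of the brain. miR-214-3p had it in 68.1% and 70.1% and miR-363-3p in 76.7% and 77.5%, but 2 brain libraries (59.1% and 65.5%) and 1 (85.2%) had 50 counts of them. For miR-10a-5p it was 83.5% in the female pool and 81.9% in the male pool, against 75.6% to 83.1%.

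For miR-10b-5p the reads of all samples began before the RefSeq form, 2 bases earlier in 90.9% and 90.2% of counts in the pools and in 86.0% to 91.7% in the brain. The forms with the most counts in the pools are shown for both miR-10 genes, and they differ by U12A, counted from 1 at the 5′ end with the base of miR-10a-5p first.
miR-10a-5p in the pools: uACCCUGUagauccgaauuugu
miR-10b-5p in the pools: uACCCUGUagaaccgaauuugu
In these forms, which made up 65.7% in both pools for miR-10a-5p and 74.1% and 74.8% for miR-10b-5p, both genes carry the seed ACCCUGU. Per 100 counts of miR-10b-5p there were 95.0 and 96.2 of miR-10a-5p in the pools, within the brain range of 39.8 to 249.

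**Figure D5:**
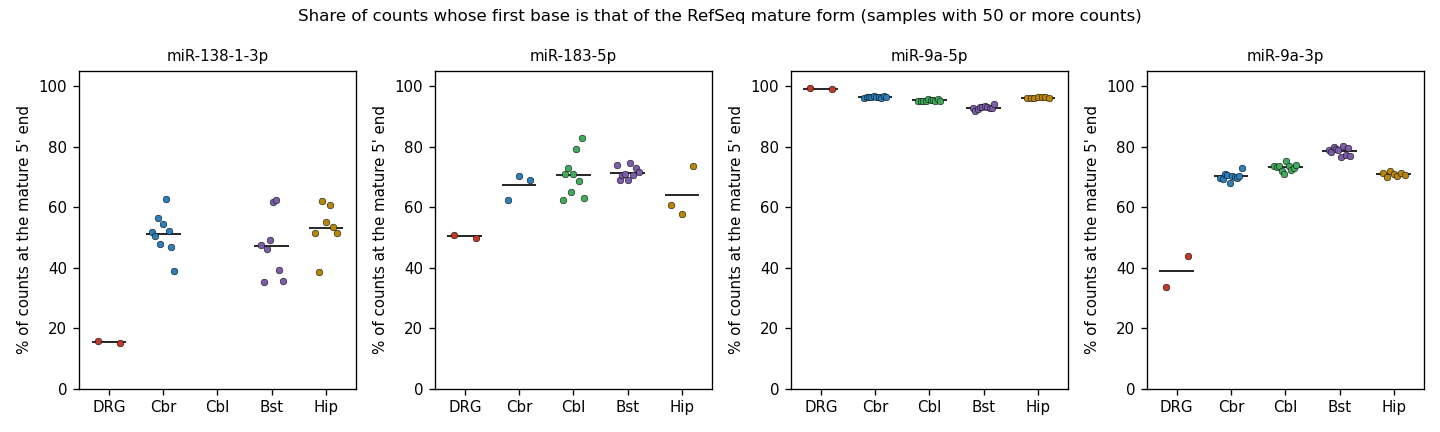
The y axis gives the percentage of counts of a miRNA that begin at the first base of its RefSeq mature form, each point is 1 sample with at least 50 counts, and lines are group means. DRG stands for the 2 ganglion pools, Cbr for the Cerebrum, Cbl for the Cerebellum (no library with 50 counts of miR-138-1-3p), Bst for the Brainstem and Hip for the Hippocampus; the pools lie below every brain library for miR-138-1-3p, miR-183-5p and miR-9a-3p and above them for miR-9a-5p.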

How the data were processed

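Small RNA of Sprague Dawley rat tissues was sequenced by the authors, who trimmed adapters (cutadapt 1.4.1 is named in the submitters' processing notes) and aligned reads to rat, mouse and human miRNAs of miRBase. The supplementary methods name the rat genome RN5 for the prediction of further miRNAs. The deposited tables hold counts, the whole number of reads per miRNA name or isomiR sequence in each run, without normalization. Reads that fit more than 1 precursor carry composite names (0.488% and 0.773% of the pools' counts), and predicted miRNAs took 0.895% and 0.992%.

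Runs were summed per library by the labels, and the 5 technical libraries of each ganglion pool were summed to 1 sample. Of 458 runs in the series, 14 were left out because their library has a further run with an identical flow cell and lane, 2 of them in these tissues. The quasi-likelihood F test of edgeR 4.0.16 (R 4.3.3) was applied to the counts in 1 fit of the 5 tissues, after filterByExpr with tissue as the group and scaling by upper quartiles, with Benjamini-Hochberg adjustment and a threshold of 0.05, as contrasts of the ganglion with the mean of the 4 regions and with each region. On simulated counts, 85% of 200 names with a log2 change of 2 were recovered among 923 for the comparison with the mean, with 24 calls among 723 unchanged names. These 24 were a larger share of all calls than the threshold of 0.05. Apart from the set changes, the simulated pools had the mean brain profile and the fitted spread. Differences between laboratories were therefore not simulated. DESeq2 1.42.0, limma 3.58.1 and other scalings, filters and samples were alternatives. Tables and figures used Python 3.11.15, numpy 2.4.6, pandas 2.3.3 and matplotlib 3.10.9.

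Named miRNAs are the miR-138 3p arms, the 10 highest in the pools, up to 15 per direction that were called against all 4 regions, lay outside all brain libraries and reached 50 scaled CPM (65 and 62 qualified), and up to 4 tested names with the highest mean of each of 21 lists. Arms and clusters beyond these were chosen after their values were seen, as were the composite names of let-7, miR-137, and the seeds and isomiRs. The members and lists were chosen with earlier results of these data known.

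Rats gave several regions, so the rat was examined as a pairing. After removal of region means, 22 of 51 same-rat pairs correlated above 0.1, as did 180 of 459 pairs of other rats. The medians were 0.035 and -0.007, and the ganglion pools belong to no single rat. Nothing states that technical libraries are more than repeats of a pool, so they were not used as replicates. Library totals were 2207930 to 10394719 counts, and precision was limited by the 2 pools.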

Additional observations from a re-analysis of the deposited data

Results flagged for a closer look

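For the 39 miRNAs named as most abundant or as standing farthest from the brain, each region was searched for a library whose gap to its nearest neighbour was large for the region's range on the log2 scale. This held for 36 of 156 groups of libraries, where chance alone gives about 5%. All values are scaled CPM. Brainstem rat 9 stood apart for 12 miRNAs. It was the lowest of 10 for miR-10b-5p (602.4, next 8851), miR-10a-5p (572.4, next 9069), miR-182 (77.11, next 3636), miR-183-5p (8.024, next 619), miR-96-5p (0.3914, next 17.62), miR-143-3p (10570, next 21240), miR-199a-3p (67.52, next 110.1), miR-152-3p (17.03, next 31.7) and miR-219a-2-3p (1050, next 2016). It was the highest of 10 for miR-153-3p (844.7, next 355.3), miR-128-3p (7708, next 5294) and miR-132-3p (1327, next 813.5).

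Cerebrum rat 9 was the lowest of 10 for miR-27b-3p (13150), miR-143-3p (10010), miR-30a-5p (17020), miR-153-3p (176.2), miR-219a-5p (22.03), miR-135a-5p (39.77), miR-708-3p (163.2), miR-488-3p (123.8) and miR-9a-5p (14280). Of its counts on the 26 miRNAs whose isomiRs were examined, 85.0% came from a run on lane 8 of 1 flow cell, in which 56.6% to 57.4% of miR-27b-3p counts carried an added first base, against a median of 0.515% in the other runs. In plain CPM, its low miR-9a-5p was alike in that run and in its other run (18594 and 18712), and so was miR-488-3p (161 and 166), while miR-182 was 35.3 and 380 and miR-10a-5p 101 and 705. Its other run shared a lane with 5 ganglion runs and the run on lane 8 with 1, and whether that bears on these levels was not tested.

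Cerebellum rat 10 was the highest of 10 for miR-182 (9726, next 592.9), miR-183-5p (1590, next 65.84), miR-96-5p (91.24, next 3.344) and miR-363-3p (13.61, next 8.653). Cerebellum rat 11 was the lowest for miR-27b-3p (16800) and miR-152-3p (19.05). Hippocampus rat 10 was the highest of 7 for miR-127-3p (188300) and miR-196b-5p (0.9323).

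Other libraries stood apart once each. The lowest were Cerebrum rat 5 for miR-10b-5p (46.19), Brainstem rat 11 for miR-26a-5p (26490) and Hippocampus rat 11 for the composite of miR-129-1-3p and miR-129-2-3p (183.0). The highest were Cerebellum rat 3 for miR-196a-5p (2.229), Hippocampus rat 8 for the composite of miR-10a-5p and miR-10b-5p (0.1276), Cerebrum rat 4 for miR-690 (5.628) and Cerebellum rat 2 for miR-135a-5p (107.4). The ganglion pools could not be examined in this way, since there were 2.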

How the results depend on the processing

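The ganglion side was 2 pools, and without the female pool 205 names were higher and 211 lower than the mean of the regions, against 198 and 219 without the male pool, and 249 and 250 with both; 110 and 98 were higher and 124 and 119 lower than all 4 regions. Of 99 named miRNAs, 17 lost their call without the female pool and 11 without the male pool. With library totals alone 93 names were higher than all 4 regions, 128 than the Brainstem and 166 than the Hippocampus. Without a filter, 501 of 5212 names were higher than the mean and 387 than the Cerebrum. With all 10 hippocampus libraries, 156 were higher and 150 lower than the mean, 56 and 65 against all 4 regions, 149 and 131 against the Brainstem, 96 and 140 against the Hippocampus, and 158 and 148 lower than the Cerebrum and the Cerebellum. The first flow cell alone, with 665 names tested, gave 147 lower than the mean, 146 than the Cerebrum, 142 than the Cerebellum (138 higher), 125 than the Brainstem and 137 than the Hippocampus (165 higher), and 93 higher and 63 lower than all 4 regions. The cause of these moves was not tested beyond the number of names or samples. The other counts over all names stayed within 1.5 times under DESeq2, TMM, all deposited runs, the other flow cells, sex as covariate and without predicted names.

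The rat pairing, fitted in limma as a replicate block, gave 290 names higher and 243 lower than the mean and 183 and 149 against all 4 regions, with a correlation of 0.00544 between libraries of a rat, and 3 named calls were lost (miR-1298, miR-448-3p and miR-34b-5p). Without runs of the lane with an added base, chosen after seeing the data, 257 names were higher and 251 lower. Directions turned for 12 named miRNAs, past the threshold only for miR-140-5p and miR-126a-3p with library totals (adjusted p = 0.00968 and 0.0107). On the log2 scale, library totals gave -0.0073 for miR-26a-5p, -0.0663 for miR-30a-5p, -0.5537 for miR-140-5p, -0.1936 for miR-126a-5p, -0.3792 for miR-126a-3p, -0.3713 for the composite of miR-3107-5p and miR-486-5p and -0.3000 for miR-3107-5p. All hippocampus libraries gave -0.1314 for miR-140-5p, -0.4695 for miR-143-5p, -0.0940 for miR-126a-3p, -0.0352 for that composite, -1.2209 for miR-141-3p and -1.1830 for miR-429. TMM gave -0.0332 for miR-140-5p. Without the female and the male pool in turn, miR-140-5p was -0.1504 and 0.0899, the composite 0.3071 and -0.0960, miR-486-5p 1.3907 and -0.9121, miR-3107-5p 0.9661 and -1.6085, and miR-222-5p 0.1586 and -0.6184. miR-3107-5p was -0.6102 without the lane, and miR-222-5p 0.1911 without predicted names.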
